A study of Mus musculus with 6 samples.

Results

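Vesicular glutamate transporters load glutamate into synaptic vesicles, and the genes described here were Slc17a6 (VGLUT2), Slc17a7 (VGLUT1) and Slc17a8 (VGLUT3). They were taken by symbol from the deposited count tables, where all 3 were found among 32531 gene rows, and all 3 were among the 16496 genes that passed the filter on low counts. The libraries came from the thalamus of adult, untreated mice of the line Slc17a6-EGFP/Rpl10a (JX883), in which the ribosomal protein Rpl10a carries an EGFP tag and which is named for Slc17a6. Translating ribosome affinity purification (TRAP) pulls tagged ribosomes out of homogenised tissue with anti-EGFP antibodies. The study held 2 groups of 3 libraries: ribosome-bound RNA immunopurified from this line (IP), and Input from thalamus of the same line. The Input samples too are labelled as ribosome-bound RNA, so whether Input is the total RNA of the tissue is not settled, nor then is what IP over Input is relative to. All mice carried the tag, no mouse without it was analysed here, and the labels name neither the promoter that drives the transgene nor how many animals went into a library. They do not say that replicates were separate animals either, so a p-value here reflects only how far these 6 libraries scatter, and that scatter may be technical. The libraries held between 44081149 and 54421395 gene reads, and 3 reads corresponded to between 0.0552 and 0.0681 CPM (gene reads scaled by library size).

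The transporters are driven by the electrochemical proton gradient that the vesicular ATPase builds across the vesicle membrane. A neuron that makes one of these transporters can release glutamate. In rodent brain VGLUT2 is the main transporter of subcortical glutamatergic neurons, thalamic relay neurons among them, and VGLUT1 that of cortex, hippocampus and cerebellum. VGLUT3 occurs in scattered neurons that mostly use another transmitter too, such as serotonin, acetylcholine or GABA.

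Slc17a6 lies on the plus strand of chromosome 7 from 51622006 to 51671119, with 12 exons in its longest protein-coding transcript (GENCODE M21 on GRCm38, the assembly of mm10). Slc17a7 lies on the same strand of chromosome 7 from 45163949 to 45176142, and its longest protein-coding transcript has 13 exons. Slc17a8 lies on the minus strand of chromosome 10 from 89574020 to 89621253, with 12 exons. Their exons cover 5.4, 5.39 and 4.72 kb in the order given, and 0 bases of them overlap exons of another annotated gene, on either strand. The 250 bases before the outermost RefSeq start of each gene are shown because Slc17a6 names the mouse line and its sequence can be set beside that of the other members. They are read 5′ to 3′ on the gene's strand from RefSeq (GRCm38.p6), at chr7:51621580-51621829 for Slc17a6, chr7:45163671-45163920 for Slc17a7 and chr10:89621250-89621499 for Slc17a8. Capitals mark the GC-box letters GGGCGG on either strand, and overlapping matches run together.
Slc17a6: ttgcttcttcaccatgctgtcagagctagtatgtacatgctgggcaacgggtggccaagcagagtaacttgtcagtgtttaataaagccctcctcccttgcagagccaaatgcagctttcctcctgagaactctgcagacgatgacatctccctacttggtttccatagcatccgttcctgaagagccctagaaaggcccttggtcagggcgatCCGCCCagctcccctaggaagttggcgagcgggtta
Slc17a7: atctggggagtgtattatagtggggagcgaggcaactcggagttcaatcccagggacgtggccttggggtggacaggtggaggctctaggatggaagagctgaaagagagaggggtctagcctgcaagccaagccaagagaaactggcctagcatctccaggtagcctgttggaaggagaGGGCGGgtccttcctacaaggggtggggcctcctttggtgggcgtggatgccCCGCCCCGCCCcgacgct
Slc17a8: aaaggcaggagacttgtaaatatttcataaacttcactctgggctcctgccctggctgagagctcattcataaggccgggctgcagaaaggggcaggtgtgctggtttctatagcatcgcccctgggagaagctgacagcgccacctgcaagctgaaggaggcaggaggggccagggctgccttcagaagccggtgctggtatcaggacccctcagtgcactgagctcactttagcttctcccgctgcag
The GC-box letters occurred 1 time before Slc17a6, 3 times before Slc17a7 and 0 times before Slc17a8, and 32.7% of all 32851 windows of this length held them. TATAAA and TGACGTCA, searched on both strands, were in none of the 3 windows, and were found in 12.4% and 1.55% of all windows. The GC content was 53.2% before Slc17a6, 61.2% before Slc17a7 and 57.2% before Slc17a8, against a median of 52.4% over all windows.

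Slc17a6 was the predominant vesicular glutamate transporter in all 6 libraries, and its level was higher in IP than in Input of the same replicate number each time. It had 320025, 116575 and 119616 reads in IP replicates 1, 2 and 3, against 144998, 42770 and 21028 in Input replicates 1, 2 and 3. These were 0.588%, 0.224% and 0.226% of all gene reads in IP and 0.306%, 0.0948% and 0.0477% in Input. In CPM scaled by trimmed mean of M-values factors (TMM), the level was 6489, 2193 and 2200 in IP and 3153, 875 and 477 in Input. Replicate 1 was the highest library of each group, and the groups overlapped, since Input replicate 1 lay above IP replicates 2 and 3. By exon length, Slc17a6 ranked 6th, 48th and 49th of 23155 annotated genes in IP replicates 1, 2 and 3, and 14th, 86th and 251st in Input.

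The log2 fold change of Slc17a6, IP over Input, was 1.27 ± 0.68 (SE), short of the 0.05 threshold (adjusted p = 0.206 by edgeR's quasi-likelihood test). Once the replicate number was added as a block, it became 1.52 ± 0.19 and passed (edgeR adjusted p = 0.000246). The folds within numbers 1, 2 and 3 were 2.06, 2.5 and 4.61. Without the block the call depended on replicate 1: it passed without Input replicate 1, at 2.43 (edgeR adjusted p = 0.0161), and without both libraries of that number, at 1.7 (edgeR adjusted p = 0.00893). Without IP replicate 1 the value was 0.56 and did not pass (edgeR adjusted p = 0.589). It was 0.86 without Input replicate 3 (edgeR adjusted p = 0.366). Leaving out 1 library removes it from its same-numbered pair and keeps its partner. Without both libraries of number 2 the value was 1.26, and without both of number 3 it was 1.12 (edgeR adjusted p = 0.413 and 0.271). Of all tested genes, 95.6% had a lower log2 fold change than Slc17a6, and 97% with the block. In bulk RNA, fewer cells of a type and less RNA per cell cannot be told apart.

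**Figure D1:**
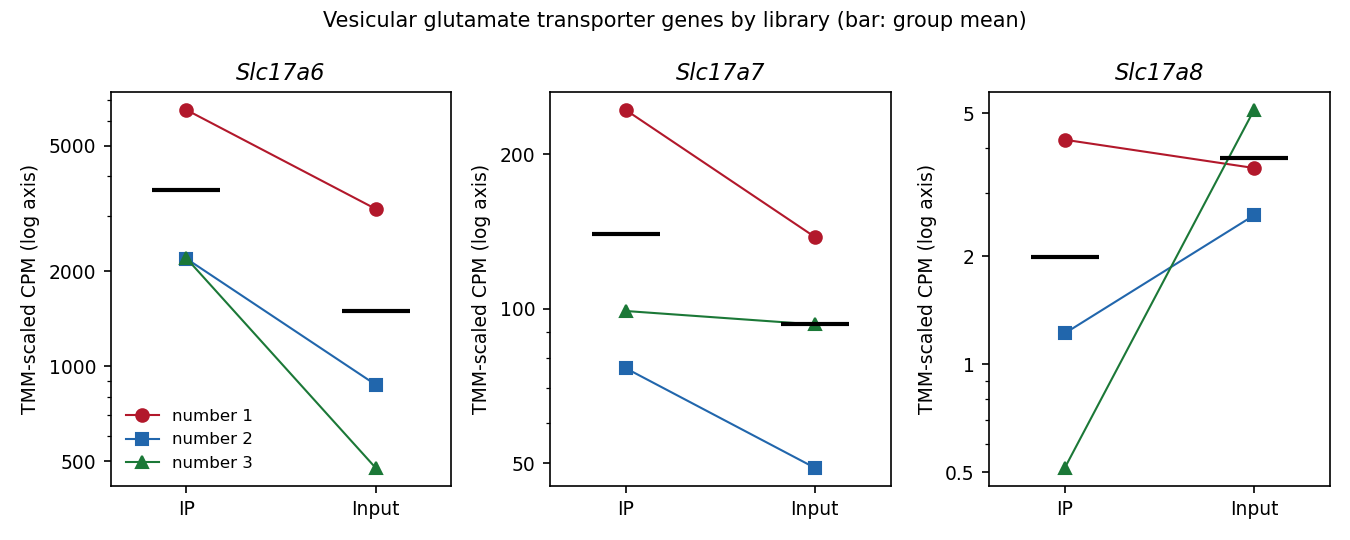
TMM-scaled CPM (log axis) of each transporter gene in IP (left) and Input (right), with lines joining libraries of the same replicate number and black bars at the group means. Slc17a6 is higher in IP along every line, Slc17a7 by less, and Slc17a8 is lower in IP for numbers 2 and 3 and higher for number 1.

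Slc17a7 was at a small part of the Slc17a6 level, and of the fits run it passed only in that with the replicate block. It had 244, 76.6 and 99 CPM in IP replicates 1, 2 and 3, against 138, 49 and 93.2 CPM in Input. The pair of number 3 differed least, and the groups overlapped. The mean of its IP libraries was 140.0 ± 91.2 CPM and that of its Input libraries 93.5 ± 44.7 CPM (SD, n = 3 each). Its log2 fold change, 0.58 ± 0.48 (SE), missed the threshold (edgeR adjusted p = 0.417). Under the replicate block Slc17a7 passed at 0.52 ± 0.17 (edgeR adjusted p = 0.04), and the log2 ratios within numbers 1, 2 and 3 were 0.82, 0.64 and 0.09. Without IP replicate 1 the value without the block was -0.08 (edgeR adjusted p = 0.91).

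Slc17a8 was read at low counts, with 208, 65 and 28 reads in IP replicates 1, 2 and 3, against 162, 127 and 225 reads in Input. Its level was 4.22, 1.22 and 0.515 CPM in IP and 3.52, 2.6 and 5.11 CPM in Input. IP replicate 3 was the lowest library and Input replicate 3 the highest, while number 1 ran the other way by a fold of 1.2. Its log2 fold change was -0.92 ± 0.76 (SE) and missed the threshold (edgeR adjusted p = 0.416), nor did the value with the replicate block, -1.32 ± 0.77 (edgeR adjusted p = 0.211). Its value was -2.09 when IP replicate 1 was left out (edgeR adjusted p = 0.073) and -0.16 when both libraries of number 3 were (edgeR adjusted p = 0.89). The 7 genes of serotonergic and catecholaminergic neurons summed to 1.3, 6.02 and 6.33 CPM in IP replicates 1, 2 and 3. In Input they summed to 10.2, 34.6 and 28.1 CPM. Within IP this order was the reverse of that of Slc17a8, and Input replicate 2 had the highest sum but the lowest Input value of Slc17a8. Ddc, Th and Slc6a3 had the highest mean CPM of this list. Ddc had 1.05, 3.18 and 2.56 CPM in IP and 6.31, 9.66 and 8.36 CPM in Input. Th had 0.0203, 1.75 and 2.48 CPM in IP and 2.41, 15.8 and 7.31 CPM in Input. Slc6a3 had 0, 0.639 and 0.717 CPM in IP and 1.33, 8.35 and 11.1 CPM in Input. The log2 fold changes of Ddc, Th and Slc6a3 were -1.84, -2.58 and -3.93 (edgeR adjusted p = 0.0258, 0.133 and 0.045). The 7 genes did not all go one way. Tph2, the tryptophan hydroxylase of serotonin neurons, had 0, 0 and 3 reads in IP and 0, 17 and 46 in Input, and Slc6a4, the serotonin transporter, had 0 reads in every IP library and 11 in Input replicate 3 alone. Fev, a transcription factor of serotonin neurons, had 10, 23 and 27 reads in IP and 5, 17 and 0 in Input, a log2 fold change of 1.29 (edgeR adjusted p = 0.498). The part of such neurons in the Slc17a8 values was not tested.

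In the fit on group alone 0 of 3 members were called in either direction, against 25.2% of all tested genes (9.60% higher and 15.6% lower in IP). With the replicate block 2 of 3 were called higher and 0 lower, against 15.9% of all tested genes called higher and 19.2% lower in that fit. Of all tested genes, 44.9% had IP and Input values that did not overlap, and 0 of the 3 members did.

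The mixture of the 3 transporters was compared as ratios within each library, which need no scaling between libraries. Slc17a6 made up 96.31%, 96.57% and 95.67% of the reads of the 3 genes in IP replicates 1, 2 and 3, and 95.69%, 94.43% and 82.93% in Input. Counting error was small, with a 95% Wilson interval of 82.46% to 83.39% for Input replicate 3, the library with fewest Slc17a6 reads; such intervals cover counting error only. Per kilobase of exon the Slc17a6 shares were 96.3%, 96.56% and 95.67% in IP and 95.67%, 94.39% and 82.8% in Input. The IP libraries thus lay within 1 percentage point of each other, and Input replicate 3 stood apart.

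Per 100 reads of Slc17a6 there were 3.77, 3.49 and 4.5 reads of Slc17a7 in IP replicates 1, 2 and 3, against 4.39, 5.6 and 19.5 in Input. The ratio was lower in IP in 3 of 3 numbers, and the groups overlapped by a narrow margin. The mean difference of log2 ratios was -1.01, and -0.35 without Input replicate 3 (exact two-sided permutation test over all 6 libraries, p = 0.2, adjusted p = 0.28 over the 7 comparisons of this kind, n = 3 each; 0.1 is the smallest p that 3 against 3 can give). For Slc17a8 there were 0.065, 0.0558 and 0.0234 reads per 100 of Slc17a6 in IP, against 0.112, 0.297 and 1.07 in Input. Here the groups did not overlap, with a mean log2 difference of -2.89 (exact two-sided permutation p = 0.1, adjusted p = 0.233, n = 3 each). When 1 library or number was left out, that difference ran between -3.95 without number 1 and -1.6 without number 3. Relative to Slc17a7, Slc17a8 differed by a mean log2 of -1.89 in the same direction, again without overlap (exact two-sided permutation p = 0.1, adjusted p = 0.233, n = 3 each). By a sign-flip test on the 3 within-number differences each of these had p = 0.25, the smallest possible (exact, two-sided).

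**Figure D2:**
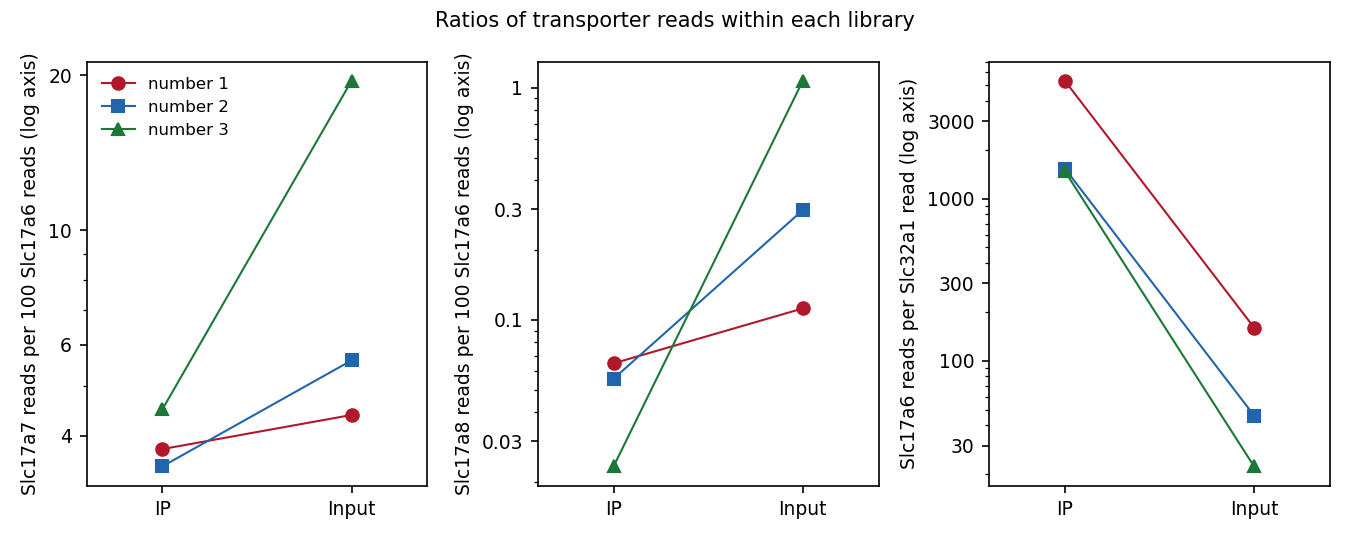
Reads of Slc17a7 and of Slc17a8 per 100 reads of Slc17a6, and of Slc17a6 per read of Slc32a1, within each library (log axes), with IP left of Input and lines joining the same replicate number. The first pair of ratios is lower in IP in every number, and Input replicate 3 holds 19.5 Slc17a7 reads per 100 of Slc17a6.

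Markers of other brain regions also stood apart in Input replicate 3, some high and some low. The 15 tested genes of cortical and hippocampal neurons, where VGLUT1 is the usual transporter, had a median ratio of 4.54 between that library and the mean of Input replicates 1 and 2, and 11 of 15 had their highest Input value there. The summed level of the whole list of 16 was 1831 to 1939 CPM in IP and 1617 to 2448 CPM in Input. Most of that sum came from Camk2a and Rorb, so it says little about the other genes of the list. Camk2a had 943, 868 and 864 CPM in IP and 738, 774 and 1379 CPM in Input. Rorb had 326, 342 and 346 CPM in IP and 580.4, 358 and 249 CPM in Input. Neurod6, a transcription factor of cortical pyramidal neurons chosen here after its values were seen, had 0.203, 0.395 and 7.89 CPM in IP replicates 1, 2 and 3 and 0.087, 0.328 and 25 CPM in Input. The same median ratio was 3.96 for the 12 striatal genes and 0.483 for the 16 genes of thalamic relay neurons. It was 0.449 for the 12 habenula genes and 0.41 for the 10 tested hypothalamic genes. Without Input replicate 3 the Slc17a7 log2 fold change was 0.59, against 0.58 over all libraries. The log2 difference of the Slc17a7 to Slc17a6 ratio was -0.35 without that library, against -1.01 over all libraries. The part of tissue from other brain regions in the Slc17a7 values was not tested.

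The mixture was also set against the vesicular transporter of inhibitory neurons. Slc32a1, which loads GABA and glycine, fell by 3.86 ± 0.3 (SE) on the log2 scale in IP (edgeR adjusted p = 0.000135), with 1.22, 1.43 and 1.49 CPM in IP against 19.7, 19.1 and 21.4 CPM in Input. There were 5334, 1534 and 1477 reads of Slc17a6 per read of Slc32a1 in IP replicates 1, 2 and 3, and 160.2, 45.94 and 22.3 in Input. The groups did not overlap, and the mean difference of log2 ratios was 5.38, with within-number differences of 5.05, 5.05 and 6.04 (exact two-sided permutation p = 0.1, adjusted p = 0.233, n = 3 each). Input replicate 3 held the lowest ratio and IP replicate 1 the highest.

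Set beside 24 pan-neuronal genes of the same library, such as the synaptic genes Snap25 and Vamp2, each transporter was given as its distance from the list's mean. Slc17a6 stood a log2 of 3.62, 1.92 and 2.01 above the mean of that list in IP and 3.17, 1.2 and 0.44 above it in Input, a mean difference of 0.91 (exact two-sided permutation p = 0.4, adjusted p = 0.467, n = 3 each), higher in IP in 3 of 3 numbers. That difference was 0.33 without Input replicate 3, 0.36 without IP replicate 1 and 1.69 without Input replicate 1. Slc17a7 stood at -1.11, -2.92 and -2.46 in IP and -1.34, -2.96 and -1.91 in Input, a mean difference of -0.09 whose sign changed when 1 library was left out (exact two-sided permutation p = 1, n = 3 each). Slc17a8 stood at -6.97, -8.87 and -10.03 in IP and -6.63, -7.19 and -6.1 in Input, lower in IP in 3 of 3 numbers by a mean of -1.98 (exact two-sided permutation p = 0.2, adjusted p = 0.28, n = 3 each).

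The spread of the transporters between libraries was wide for their level. Among the 36 genes with a mean CPM within 2-fold of that of Slc17a6, counting itself, 97.2% had a smaller SD of log2(CPM + 1) than Slc17a6 in IP, where its SD was 0.9 against a median of 0.2. In Input its SD was 1.39 against a median of 0.27. Slc17a7 had an SD of 0.87 in IP and 0.75 in Input, against medians of 0.2 and 0.25 over 2832 genes of like level. Slc17a8 had an SD of 0.91 in IP, above a median of 0.33, but 0.38 in Input, below a median of 0.46.

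Replicate 1 was high for Slc17a6 and Slc17a7 in both groups, and other carrier genes were high there too. Slc17a6 in replicate 1 stood at 2.95 times the mean of replicates 2 and 3 in IP and at 4.66 times in Input, and Slc17a7 at 2.79 and 1.95 times. Slc17a8 stood at 4.85 times in IP and at 0.914 times in Input. The 147 other Slc genes averaging 5 CPM or more, the mitochondrial Slc25 carriers left out, had medians of 1.76 times in IP and 1.51 times in Input, and 44.2% of them were above 1.5 times in both, against 8.66% of all 10907 genes at that level, clone-accession features included. Tmem genes, named for transmembrane proteins, had medians of 1.4 and 1.19 times (154 genes). The 34 Slc25 genes had medians of 1.11 times in both groups, and 35 proteasome subunit genes 0.858 and 0.922 times, near the medians of 0.996 and 1.01 over all genes. These name groups were chosen after the values were seen and were not tested. Replicate number, the lane tag of the sample descriptions (3, 8 and 4 for numbers 1, 2 and 3) and animal cannot be told apart here.

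**Figure D3:**
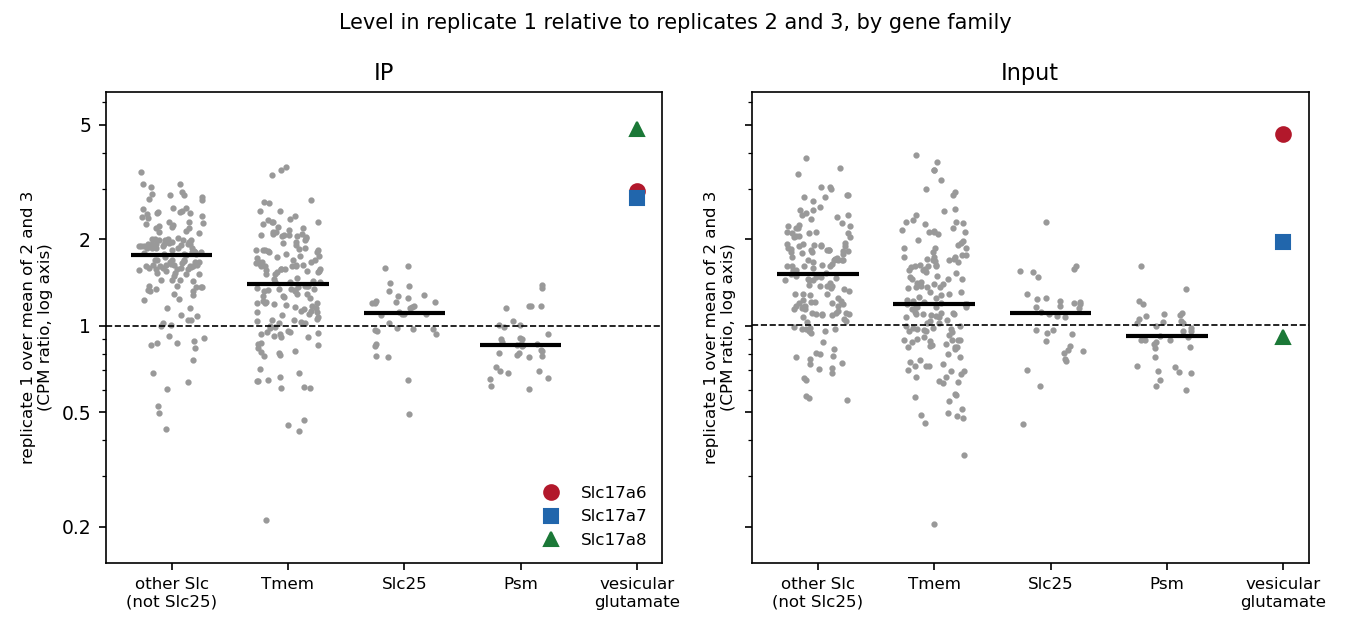
CPM in replicate 1 over the mean of replicates 2 and 3 (log axis) in IP (left) and Input (right) for genes grouped by name, with grey points for genes of at least 5 CPM, black bars at group medians and a dashed line at the median of all genes. Other Slc genes sit at medians of 1.76 in IP and 1.51 in Input, above Slc25 and proteasome (Psm) genes, and Slc17a6 sits at 2.95 and 4.66.

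The genes whose profile over the 6 libraries was nearest to each transporter, by the root mean square difference of centred log2(CPM + 1) values, were picked among those averaging 5 CPM or more, clone-accession features left out. For Slc17a6 these were Chst8, a carbohydrate sulfotransferase, at 0.3, Ptger3, a prostaglandin E2 receptor, at 0.32, Tmem185b at 0.35, and the receptors Mrgpre and Prokr2 at 0.36 each, against a median of 1.22 over 10663 genes. Chst8 had 57, 22 and 24.8 CPM in IP replicates 1, 2 and 3 and 28.7, 13.7 and 4.86 CPM in Input. For Slc17a7 they were Aplp1, an amyloid precursor-like protein, at 0.21, Mogs, a glucosidase of N-glycan trimming, at 0.22, Man1c1, a mannosidase, and Dirc2 at 0.23 each, and Cx3cl1, the chemokine fractalkine, at 0.24, against a median of 0.79. For Slc17a8 they were Eogt, a glycosyltransferase, at 0.17, Qsox2, a sulfhydryl oxidase, at 0.19, and Pomt2, a mannosyltransferase, Atp7a, a copper pump, and Thsd4 at 0.22 each, against a median of 0.83. Among the transporters, Slc17a6 and Slc17a7 differed by 0.84, under the median of 1.22 for Slc17a6 and above that of 0.79 for Slc17a7. Slc17a7 and Slc17a8 differed by 0.81, near their medians of 0.79 and 0.83, and Slc17a6 and Slc17a8 by 1.5, above both of theirs. The named genes were picked as the smallest differences, so they cannot serve as a reference for these values. Slc17a8, at a mean of 2.86 CPM, was not among the candidates.

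**Figure D4:**
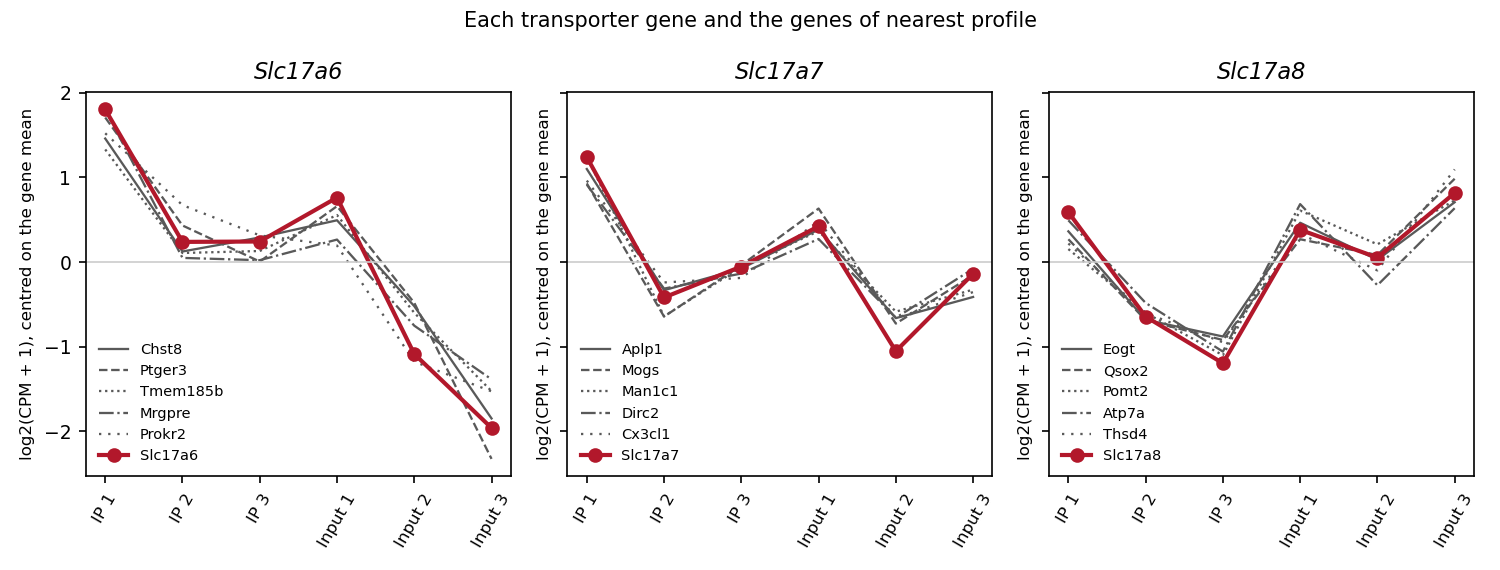
Profile of each transporter gene (red) and of the genes nearest to it (grey) over the 6 libraries, as log2(CPM + 1) centred on each gene's mean. Slc17a6 is highest in IP replicate 1 and lowest in Input replicate 3, and Slc17a8 is lowest in IP replicate 3.

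Other genes of glutamate handling were read from lists of carriers and enzymes. The median log2 fold change over all tested genes was -0.04, and 9.60% of them were called higher and 15.6% lower in IP. Of 6 other members of the SLC17 family 1 was tested and 0 were called. This was Slc17a5, sialin, the lysosomal sialic acid exporter, with 34.9, 12.7 and 18.7 CPM in IP and 26.6, 14.2 and 1.52 CPM in Input and a log2 fold change of 0.65 (edgeR adjusted p = 0.594). Slc17a9, a vesicular nucleotide transporter, had 0, 15 and 1 reads in IP and 8, 9 and 0 in Input. Slc17a1, a phosphate and urate carrier of kidney, had 1 read in all, and Slc17a2, Slc17a3 and Slc17a4 had 0 reads in 6 libraries, under the limit of 3 reads that a count of 0 allows.

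Of 5 vesicular transporters for other transmitters, 1 fell, 0 rose and 4 did not pass, with a median log2 fold change of -0.61. The one that fell was Slc32a1, given above. Slc18a2, the monoamine transporter VMAT2, had a log2 fold change of -0.61 ± 0.41 (edgeR adjusted p = 0.31), and Slc18a3, the acetylcholine transporter, of -3.58 ± 1.28 (edgeR adjusted p = 0.0725). Slc18a3 had 0.0406, 0.113 and 0.497 CPM in IP and 6.48, 0.962 and 0.431 CPM in Input. Its value was -1.67 without Input replicate 1 (edgeR adjusted p = 0.412), and it passed at -4.07 without Input replicate 3 (edgeR adjusted p = 0.0368). Slc18a1, the other monoamine transporter, had 1.39 ± 1.3, and Slc18b1, a vesicular polyamine transporter, 0.14 ± 0.29, on the log2 scale.

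Of the 4 tested carriers that clear glutamate from the synapse, 2 fell, 0 rose and 2 did not pass, with a median of -0.8. Slc1a3, the astrocyte carrier GLAST, fell by 4.32 ± 0.4 (SE) on the log2 scale, with 4.16, 2.97 and 2.28 CPM in IP against 97, 44.3 and 47.1 CPM in Input (edgeR adjusted p = 0.000324). Slc1a2, the astrocyte carrier GLT-1, fell by 1.62 ± 0.41, with 770, 418 and 288 CPM in IP against 2323, 1073 and 1135 CPM in Input (edgeR adjusted p = 0.0218). Its call ended without IP replicate 2 or IP replicate 3 (edgeR adjusted p = 0.0776 and 0.0612). Slc1a1, the neuronal carrier EAAC1, had 243, 90.3 and 78.7 CPM in IP and 224, 92.4 and 93 CPM in Input, a log2 fold change of 0.01 ± 0.49 (edgeR adjusted p = 0.991). Slc1a6, the carrier of Purkinje cells, had 0.36 ± 0.53, and Slc1a7 had 0 reads in every IP library and 2, 2 and 3 reads in Input. Beside these falls, the summed level of 12 other astrocyte genes was 146 to 173 CPM in IP and 811 to 1256 CPM in Input, and 10 of the 12 fell.

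Of the 10 tested genes that supply glutamate, 1 rose, 4 fell and 5 did not pass, with a median of -0.14. Slc25a22, a mitochondrial glutamate carrier, rose by log2 1.25 ± 0.18 (SE), with 222, 201 and 180.3 CPM in IP against 81.1, 94.6 and 77.1 CPM in Input, so the groups did not overlap (edgeR adjusted p = 0.00215). Without both libraries of number 2 its value was 1.34 and missed the threshold (edgeR adjusted p = 0.0518). Slc25a18, the other carrier of this kind, fell by 4.03 ± 0.44 (edgeR adjusted p = 0.000629). Glul, the astrocyte enzyme that turns glutamate into glutamine, fell by 2.66 ± 0.24 (edgeR adjusted p = 0.000263). Slc38a3, a glutamine carrier of astrocytes, fell by 4.61 ± 0.59, and Slc38a2, a neutral amino acid carrier, by 1.1 ± 0.33, a call that ended without any 1 of 4 libraries (edgeR adjusted p up to 0.132). Glud1, glutamate dehydrogenase, had 228, 317 and 322 CPM in IP and 475, 356 and 305 CPM in Input, with overlapping groups (log2 fold change -0.39, edgeR adjusted p = 0.237). Got1, an aspartate aminotransferase, had a log2 fold change of 0.28, and Slc38a1, a glutamine carrier of neurons, of 0.12, and neither passed.

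**Figure D5:**
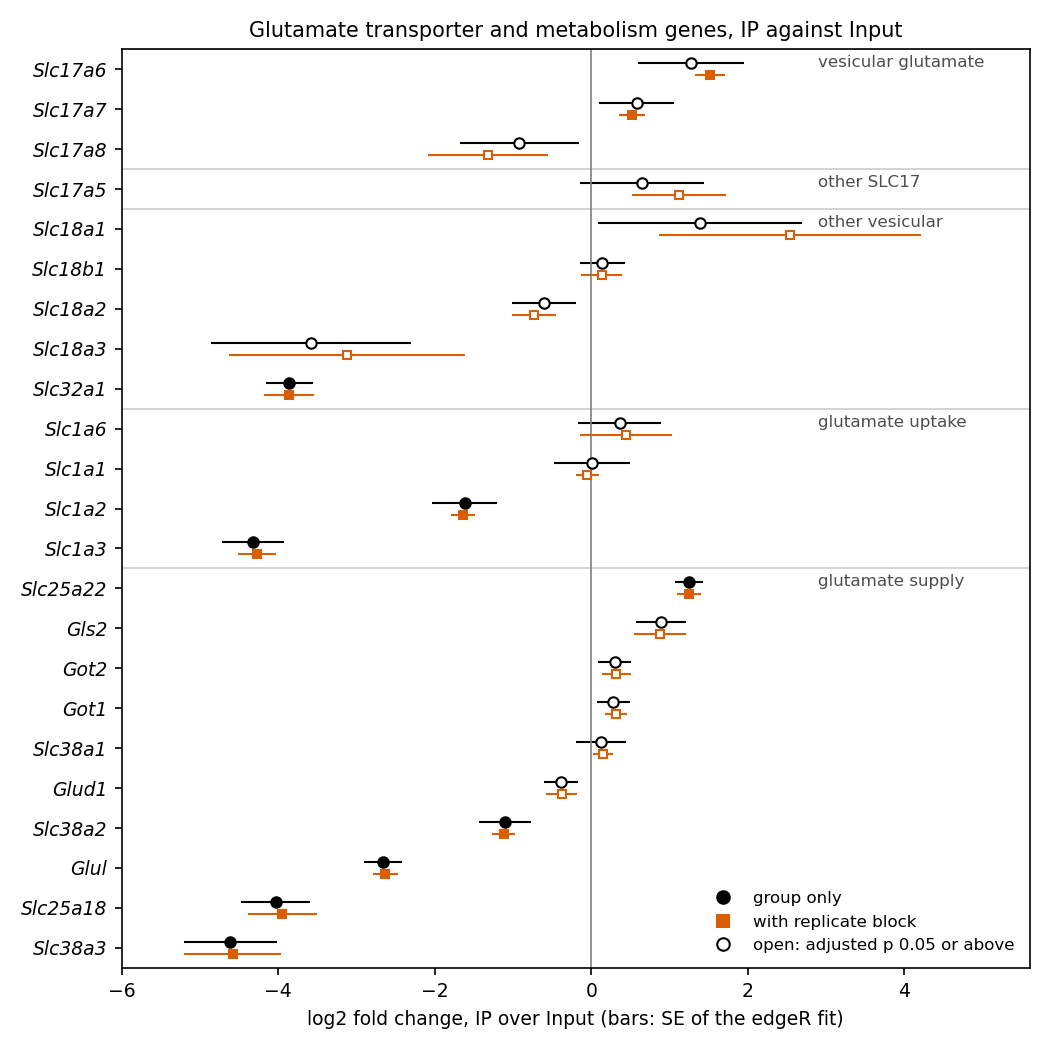
Log2 fold change of IP over Input with its SE for the tested transporter, uptake and supply genes, from the fit on group (circles) and with the replicate block (squares), filled where the adjusted p was under 0.05. Slc17a6 and Slc17a7 are filled only with the block, and Slc25a22 is filled and higher in IP in both fits.

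The labelled tissue and cell class were read from marker lists. Of all tested genes 9.60% were called higher and 15.6% lower in IP, and 15.9% and 19.2% with the replicate block. Of 16 genes of thalamic relay neurons 6 rose and 0 fell, of 24 pan-neuronal genes 11 rose and 1 fell, and of 12 GABAergic genes 6 fell and 0 rose. Of 12 genes each, 12 oligodendrocyte, 11 microglial and 10 astrocyte genes fell, 8 of 11 vascular genes fell, and none of these rose. Of 12 habenula genes, neurons that also use VGLUT2, 6 fell and 1 rose, and of 10 hypothalamic genes 1 fell and 1 rose. Of the cortical and hippocampal genes 0 were called, of 12 striatal genes 2 fell and 1 rose, and of 4 tested monoaminergic genes 2 fell. In this fit without the block, the hypothalamic and striatal counts lay near the shares over all tested genes. Under the replicate block 16 pan-neuronal and 9 thalamic relay genes rose. In that fit 10 GABAergic, 7 habenula, 5 striatal, 3 hypothalamic and 3 monoaminergic genes fell, as did 12 astrocyte and 12 microglial genes. Of the cortical and hippocampal genes 1 then rose, Prox1, and 2 fell, Neurod2 and Itpka, named here after their values were seen.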

How the data were processed

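RNA sequencing libraries of thalamic IP and Input, 3 each, were grouped by sample title. The authors deposited whole-number read counts per gene, 1 table per library. The submitters' processing notes name STAR 2.0.0e, HTSeq and mm10. Annotation, counting mode, strand setting and library kit: not given in the sources used here. Summary rows were left out of library sizes. Alignments at more than 1 place made up 45%, 38.5% and 38.9% of records in IP replicates 1, 2 and 3 and 23.6%, 26.6% and 27.2% in Input. Records marked ambiguous made up 1.53%, 1.92% and 1.92% in IP and 13.2%, 7.43% and 7.37% in Input. From the deposited counts, genes were filtered with filterByExpr, scaled by TMM and compared by group in edgeR 4.0.16 under R 4.3.3 (quasi-likelihood F test). Adjustment was by Benjamini-Hochberg over 16496 genes, and calls were made at 0.05. TMM factors entered every CPM value. The test was tried on simulated counts first. No 2 libraries agreed within sampling noise. Ratios used reads plus 0.5 within a library, with exact permutation tests. Exon lengths came from GENCODE M21.

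The titles number IP and Input libraries alike. The deviations of same-numbered libraries from the group mean correlated at 0.271, 0.113 and 0.141 for numbers 1, 2 and 3, all over 0.1. The numbers were taken as pairs on that ground. Libraries of unlike number were not correlated for reference, so these values alone cannot show pairing. The main fit was on group alone, with the replicate block as an alternative. Members and lists were chosen with earlier results of these data known. Named genes were the members, all genes of the SLC17, vesicular and uptake lists, and the 5 nearest profiles per member. Of the supply list, the called genes and the 3 most abundant uncalled genes were named. Of each cell type list the 2 genes of highest mean CPM could be named. The marker genes Tph2, Slc6a4, Fev, Slc6a3, Neurod6, Neurod2, Prox1 and Itpka were named outside this rule. One gene of the supply list is not reported here and was left out of its counts. Scaling by RLE, library total and upper quartile was tried, as were other filters, DESeq2 1.42.0, limma-voom (limma 3.58.1), the replicate block, leaving out clone-accession features, and leaving out libraries or numbers. Tables were handled with numpy 2.4.6, pandas 2.3.3 and scipy 1.17.1.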

Additional observations from a re-analysis of the deposited data

How the results depend on the processing

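With the replicate block, Slc17a6 and Slc17a7 passed at log2 fold changes of 1.52 and 0.52, and 2624 genes in all were higher in IP, against 1583 without it. Across fits without 1 library or 1 replicate number, the log2 fold change of Slc17a6 ran from 0.56 to 2.43. Where whole numbers were left out, it ran from 1.12 to 1.7. Across all of these fits, that of Slc17a7 ran from -0.08 to 0.98 and that of Slc17a8 from -2.14 to -0.16. The counts of all genes ran from 83 to 1640 higher and from 651 to 2598 lower (2566 with all libraries), both lowest without replicate number 2. Counts called ran from 1 to 2 for other vesicular transporters, 1 to 2 for uptake carriers and 3 to 5 for supply genes. By DESeq2, 2 vesicular transporters fell, Slc18a3 in addition (adjusted p = 0.00929), and 6 supply genes were called against 5, the further one higher in IP. Of the other ratios, Slc17a8 to Slc17a7 ran from -2.55 to -1.14 and Slc17a8 relative to pan-neuronal genes from -2.81 to -1.01. Slc17a7 relative to pan-neuronal genes ran from -0.62 to 0.28 and changed sign without IP replicate 2 (0.28), IP replicate 3 (0.06), Input replicate 1 (0.27) and number 3 (0.13). The causes were not tested. Other scalings and filters changed no call and no direction of the 3 members, and the block changed no other call among the genes of the transporter, uptake and supply lists, but it raised the counts of several marker lists. The exact tests over 3 against 3 cannot pass 0.05, so they say nothing about stability. Depth limited Slc17a8 most, with 28 reads in IP replicate 3.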
